A study of Rattus norvegicus with 9 samples.

Results

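Isolated rat ureteric buds grown with heregulin (HRG) were compared with buds grown in whole conditioned medium (BSN). The comparison took the 3 arrays titled HRG and the 3 titled BSN, 6 of the 9 arrays of the series, over all probe sets that are not array controls. Buds came from Sprague-Dawley rats at embryonic day 13 and were cultured for 4 days in a gel of equal parts (50% each) of collagen type 1 and Matrigel low in growth factors, with FGF1 at 250 ng/ml and GDNF at 125 ng/ml in every medium. BSN added conditioned medium of a metanephric mesenchymal cell line, described as branching growth. HRG added human recombinant heregulin alpha at 500 ng/ml and no conditioned medium, described as non-branching growth. The other 3 arrays (PTN) come from buds given about 3 µg/ml of pleiotrophin purified from that conditioned medium, and their values are set beside some genes as a description. RNA of 3 pooled buds made 1 sample and was amplified by double in vitro transcription. No group had FGF1 and GDNF alone, so a gene higher in HRG cannot be told from one lowered by conditioned medium. The labels do not say which pregnancies the buds came from, so the spread between arrays may be partly technical. Arrays are called by group and replicate number (BSN array 1).

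Heregulin is a secreted growth factor of the EGF family that binds the receptor tyrosine kinases ErbB3 and ErbB4, which pair with ErbB2. The ureteric bud grows out of the nephric duct, branches inside the embryonic kidney and forms the collecting ducts. Its growing tips depend on GDNF, made by the surrounding mesenchyme and received through Ret, while its trunk takes on transport and barrier functions.

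Over 10106 probe sets above the signal filter, limma called 1594 (15.8%) at an adjusted p under 0.05 for HRG against BSN, with 699 (6.92%) higher and 895 (8.86%) lower. Median centring of the arrays gave 855 higher and 623 lower, which is 57.8% higher in place of 43.9%. That centring moved the median log2 change of all probe sets from -0.04 to 0.06, so changes of about 0.1 depend on the scale chosen. Of the calls 490 were at least 2-fold, 184 of them higher and 306 lower, and 115 were at least 4-fold, 41 higher and 74 lower. The groups' arrays did not overlap in 3740 probe sets (37%). Counted as genes, by the probe set with the highest mean signal, 527 of 7458 (7.07%) were higher and 683 (9.16%) lower, 16.2% in all, with a median log2 change of -0.04. These shares are the background for the counts of gene lists given here. The lists were chosen with earlier results of these data known, so a list above these shares is a description and not a test.

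**Figure D1:**
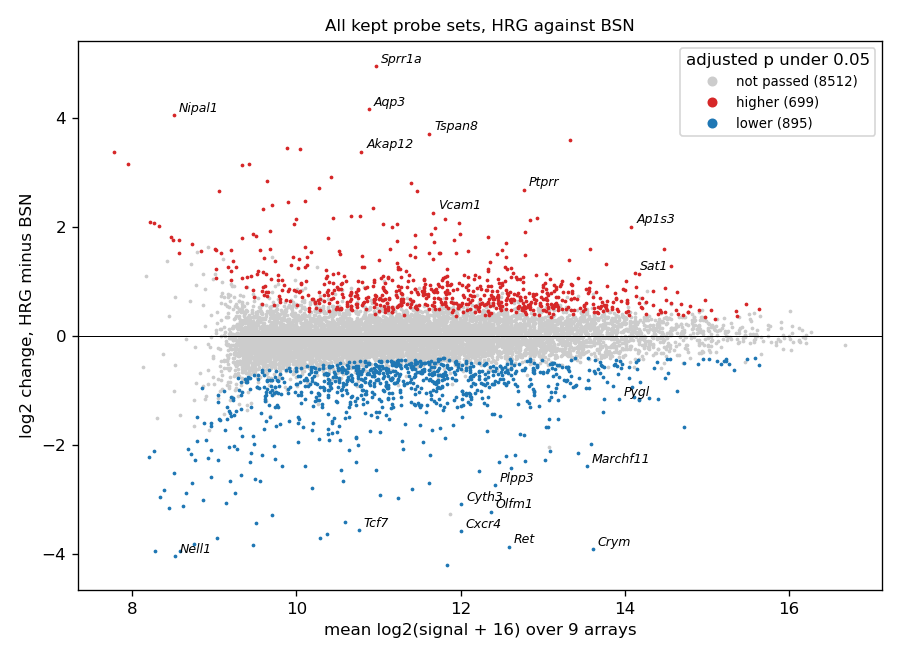
Log2 change between HRG and BSN (vertical axis) against mean log2(signal + 16) over the 9 arrays (horizontal axis) for each of 10106 kept probe sets, as points. The 699 called higher are red, the 895 called lower blue and the rest grey, and Sprr1a at 4.96 is the highest labelled point.

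The 4 genes given as markers of this comparison separated all arrays. Ret read 11483, 15204 and 13848 in BSN and 1112, 851 and 790.1 in HRG, and Cxcr4, a chemokine receptor of the tip, read 8147, 8513 and 8019 in BSN and 589, 733 and 709 in HRG. Aqp3, a basolateral water channel, read 565, 409 and 598 in BSN and 7894, 10236 and 10875 in HRG. Sprr1a, a small proline-rich protein of the cornified envelope, read 765, 474 and 826 in BSN and 27178, 22411 and 15845 in HRG. Within a gene the lowest array of the higher group was far above the highest array of the other group in each of the 4.

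Arrays within BSN correlated at 0.970 to 0.974 and within HRG at 0.971 to 0.979 (Pearson's r of log2 signals), against 0.911 to 0.927 between the groups. The actin control's 3' signal was 22019 ± 4415 in BSN and 13030 ± 1234 in HRG (SD, n = 3; exact two-sided permutation p = 0.1, the smallest that 3 against 3 allows). Its 3'/5' ratio was 33.2 ± 4.91 and 25.2 ± 5.86 (exact permutation p = 0.2), and the GAPDH 3'/5' ratio was 4.57 ± 1.11 and 2.92 ± 0.802 (exact permutation p = 0.1). Whether these RNA measures bear on any gene here was not tested. Of 16 ureteric epithelial markers on the array 14 passed the filter, and the summed signal of all 16 was 181214 to 193626 in BSN and 205208 to 216935 in HRG. Of the 14, 4 were higher, 3 lower and 7 not called, among the last Epcam, Krt8, Krt18, Cdh1, Cdh16 and Emx2. The 16 include the 4 given markers, with Aqp3 and Sprr1a among the higher and Ret and Cxcr4 among the lower. Sprr1a alone read 474 to 826 in BSN and 15845 to 27178 in HRG. The sum therefore carries these genes' own changes and is no measure of epithelial content.

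Markers of other cell types were mostly under the filter. Of 13 mesenchyme and stroma markers 4 passed it and Vim was lower, with summed signals over the 13 of 5903 to 6194 in BSN and 4781 to 5717 in HRG. Of 8 endothelial markers 3 passed it and Kdr was lower, with sums of 4678 to 5253 and 4321 to 5422. Of 11 leukocyte markers 6 passed it and Coro1a was lower, with sums of 7911 to 8588 and 6066 to 7034. Of 11 nephron markers 2 passed it and Lrp2 was higher, with sums of 5785 to 5936 and 7788 to 9841, and neither of 2 erythroid markers passed. Twist1 did not exceed 35.7 on any BSN or HRG array, Pecam1 185.4 and Ptprc 230.6, all under the filter level of these arrays. In bulk RNA, fewer cells of a type and less RNA per cell cannot be told apart.

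The promoters of 3 genes are shown because they frame the largest rise of the comparison. Sprr1a held 2 copies of the AP-1 motif, Tspan8, the largest of the 24 rises taken by the naming rule, held none, and Gja1, encoding connexin 43, held 1 copy and fell. Each runs 5′ to 3′ on the gene's strand from 250 bases before the annotated start to 50 bases after it, in RefSeq's GRCr8 build, with matches to AP-1 in capitals. The places are chr2:180752576-180752875 on the minus strand for Sprr1a, chr7:53330937-53331236 on the plus strand for Tspan8 and chr20:36302314-36302613 on the plus strand for Gja1.
Sprr1a: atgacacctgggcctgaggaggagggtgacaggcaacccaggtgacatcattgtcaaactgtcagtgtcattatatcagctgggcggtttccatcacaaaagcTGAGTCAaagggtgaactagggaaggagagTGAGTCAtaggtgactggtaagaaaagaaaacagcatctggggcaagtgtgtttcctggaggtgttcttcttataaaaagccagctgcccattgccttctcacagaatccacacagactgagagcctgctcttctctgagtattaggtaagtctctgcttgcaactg
Tspan8: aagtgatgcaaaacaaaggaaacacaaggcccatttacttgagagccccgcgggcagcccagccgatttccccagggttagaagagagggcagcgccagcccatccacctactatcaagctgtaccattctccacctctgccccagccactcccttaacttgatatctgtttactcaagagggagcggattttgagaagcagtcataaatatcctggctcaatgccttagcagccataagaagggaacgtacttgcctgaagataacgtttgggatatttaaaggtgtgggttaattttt
Gja1: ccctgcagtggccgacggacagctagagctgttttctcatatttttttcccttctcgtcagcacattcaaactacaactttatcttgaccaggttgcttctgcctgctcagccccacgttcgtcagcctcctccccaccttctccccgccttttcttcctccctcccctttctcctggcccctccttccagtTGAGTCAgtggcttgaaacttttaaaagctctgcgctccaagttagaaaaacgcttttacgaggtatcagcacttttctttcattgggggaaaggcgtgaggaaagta
AP-1 was searched as TGANTCA on both strands, where N is any base. The matches began 147 and 117 bases before the start in Sprr1a and 58 bases before it in Gja1.

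At least 1 such match lay in 295 of the 6288 measured genes with a promoter entry (4.69%), and 17 genes (0.27%) had 2 or more. The share was 5.09% among both the genes higher in HRG (22 of 432) and the genes lower in HRG (29 of 570), so the motif was about as frequent in either direction as over all genes. Among the 24 largest rises 16 had an entry and 1, Emp2, had a match. Among the 24 largest falls 18 had an entry and 3 had a match, namely Gja1, Ptn and Mt2A. The ETS motif CCGGAAGT, on either strand, lay in 9% of all promoters, 3.7% of those of higher genes and 6.14% of those of lower genes. These matches describe the letters of the window and were not set against any binding data.

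Sprr1a belonged to a list of urothelial and squamous genes, of which 11 of the 22 on the array passed the signal filter, with 3 called higher, 2 lower and 6 not called and a median log2 change of 0.15. Evpl, which encodes envoplakin of the cornified envelope, rose (439.9 to 576 in BSN and 1273 to 1432 in HRG, adjusted p = 0.00487), and Klf5, an epithelial transcription factor, rose 2-fold (1136 to 2214 in BSN and 3044 to 4132 in HRG, adjusted p = 0.0078). Sfn, the 14-3-3 sigma protein of stratified epithelium, went the other way (1219.7 to 1683 in BSN and 587 to 644 in HRG, adjusted p = 0.00219). Lcn2, encoding lipocalin-2, was also lower, at 785, 1662 and 2326 in BSN and 351, 679 and 117 in HRG (adjusted p = 0.0123), a call lost without BSN array 2 (0.0544) or without BSN array 3 (0.0645), where brackets give the adjusted p. The urothelial count for lower genes became 0 with the 60th percentile filter and 1 without BSN array 2 or BSN array 3. The members that moved were therefore split in direction, and no uroplakin of the list passed the signal filter. Upk3bl1, a uroplakin-like gene outside the list, rose 3.34-fold, with signals of 2369, 1997 and 2432 in BSN and 10014, 7041 and 6168 in HRG (adjusted p = 2.27e-05).

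Of the 24 largest rises, genes of membrane proteins and membrane traffic are given first. Tspan8, a tetraspanin, read 1679, 1070.3 and 1092 in BSN and 16914, 19118 and 14446 in HRG, and 1132, 1539.9 and 1748 in PTN. Ptprr, a receptor-type tyrosine phosphatase of the MAP kinase pathway, read 2734, 2559 and 2810.4 in BSN and 16419.9, 19885 and 16555 in HRG, and 5999, 8514 and 7132 in PTN. For Tspan8 the PTN arrays lay in the range of BSN up to a little above it, while for Ptprr they lay between BSN and HRG. Ap1s3, a small subunit of the clathrin adaptor complex of the Golgi, read 9733, 8331 and 8031 in BSN and 33215, 31859 and 40408 in HRG and rose 4.03-fold (adjusted p = 4.11e-06), with 13528, 20785 and 17298 in PTN. Atp1b1, the beta subunit of the sodium pump, read 13160.5, 11121 and 12969 in BSN and 29711, 34457 and 52365 in HRG, and a second probe set read 8203, 8352 and 8553 in BSN and 17463, 14030.3 and 17277 in HRG. Both Atp1b1 probe sets rose, although the HRG arrays of the brighter one spread widely. Emp2, an epithelial membrane protein, rose 2.88-fold (2376 to 2687 in BSN and 6899 to 8334 in HRG), and Cds1, which makes CDP-diacylglycerol, rose 2.83-fold (1516 to 1972 in BSN and 4505 to 5491 in HRG).

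Other large rises were cytoplasmic, nuclear or secreted. Rb1, encoding the retinoblastoma protein that restrains entry into S phase, read 1774, 1243 and 2000.4 in BSN and 5866, 5621 and 8406 in HRG and rose 3.95-fold (adjusted p = 2.66e-05), with 3514, 3579 and 2905 in PTN. Lrp2, encoding the endocytic receptor megalin, read 1630.4, 2142 and 766 in BSN and 5774, 4640.4 and 3925 in HRG and rose 3.37-fold (adjusted p = 0.00147). BSN array 3 was the lowest Lrp2 array, below the other BSN arrays by more than their own gap. S100a6, a calcium-binding protein, rose 3.63-fold (1552 to 2701 in BSN and 6504 to 8867 in HRG), and Lgals3, encoding galectin-3, rose 3.4-fold (3357 to 3551 in BSN and 10759 to 12424 in HRG), with PTN at 1039 to 1682. Msln, encoding mesothelin, rose 3.12-fold (1175 to 2435 in BSN and 5782 to 6091 in HRG). Ampd3, an AMP deaminase, rose 2.89-fold (2794 to 2909 in BSN and 7763 to 8695 in HRG, adjusted p = 5.21e-06). Lrrfip1 rose 3.04-fold on one probe set and passed on its second (log2 change 1.12, adjusted p = 0.00146). Lurap1l rose 3.69-fold, and Rnf182, a ubiquitin ligase, rose 3.01-fold, with HRG arrays of 8985 to 14132 above BSN arrays of 3203 to 4465. All 24 rises kept their call under every alternative run on them.

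**Figure D2:**
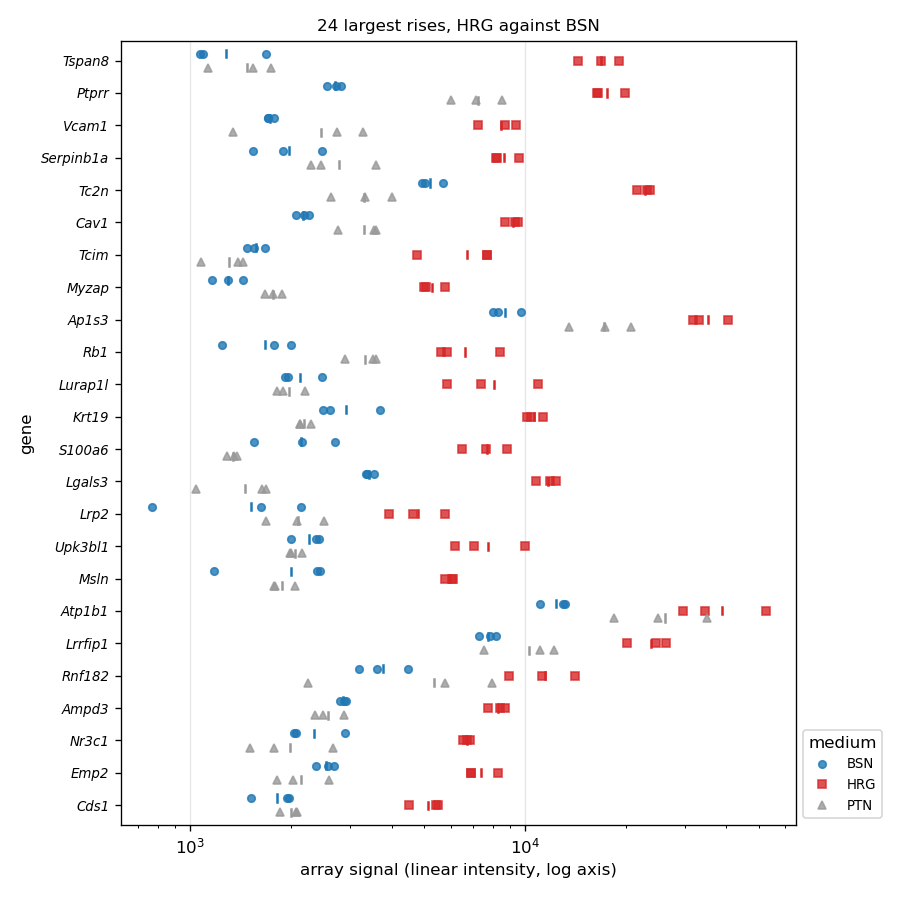
Array signal (log axis) of the 24 genes with the largest rise in HRG against BSN by the naming rule, ordered from the largest at the top, with 3 arrays per medium as points and the mean as a short line. The rule took only genes whose BSN and HRG arrays do not overlap, so the gap between their points was set by the choice. Tspan8 runs from 1070 to 1679 in BSN and from 14446 to 19118 in HRG.

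A further 54 genes differed at least 4-fold but fell outside the naming rule, and they were chosen after their values were seen. For 47 of them a group's mean lay below the 40th percentile of its arrays (750 in BSN and 691 in HRG on average), and their signals are given without a fold. Akap12, a scaffold that holds protein kinase A and protein kinase C, read 734, 835 and 879 in BSN, 8103, 8324 and 9636 in HRG and 699, 636 and 939.9 in PTN, and rose 10.5-fold (adjusted p = 4.29e-08). Its HRG arrays stood apart from both other media, and a second probe set was under the filter. C13h1orf116 rose 5.13-fold (976 to 1036 in BSN and 4985 to 5357 in HRG). Il17re, an interleukin-17 receptor chain of epithelia, rose 4.61-fold (994 to 1315 in BSN and 4195 to 6499 in HRG), and its second probe set also passed (log2 change 0.76, adjusted p = 0.0245). Anxa4, an annexin of secretory epithelia, rose 4.61-fold on one probe set, and a second read 18255, 18197 and 18775 in BSN and 46396, 41577 and 47680.3 in HRG and passed too.

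Several membrane and transport genes rose from near background. Mal, a proteolipid of apical transport vesicles, read 448 to 619.7 in BSN and 2994 to 3336 in HRG (adjusted p = 2.71e-06), and its relative Pllp, encoding plasmolipin, read 409 to 809.7 in BSN and 2263 to 2807 in HRG (adjusted p = 4.42e-05). Slc14a2, the urea transporter of the inner medullary collecting duct, read 194 to 495 in BSN and 3794 to 4170.3 in HRG, and 2 further probe sets of it also passed as higher (log2 changes 0.82 and 0.64). Nipal1, a magnesium transporter relative, read 27.1 to 164 in BSN and 1553 to 2342 in HRG, and Tmem45b read 259.8 to 610.5 in BSN and 3079 to 3539.6 in HRG. Lgals4, encoding galectin-4 of apical sorting, read 420.4 to 531 in BSN and 1987 to 2914 in HRG, and Plet1, a surface protein of progenitor epithelia, read 501 to 805 in BSN and 3733 to 5847 in HRG. In each of these 7 the HRG arrays lay above all BSN arrays by more than either group's range.

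Other genes of this kind act in signalling or metabolism. Wnt4, a Wnt ligand of the developing kidney, read 174, 377 and 497 in BSN and 2449, 2164 and 1824 in HRG (adjusted p = 0.00761). G0s2, an inhibitor of lipolysis, read 309.7 to 398 in BSN and 2436 to 2814 in HRG, and Sphkap, an anchor of protein kinase A, read 406 to 699 in BSN and 2308 to 4628 in HRG. Heg1, a transmembrane protein of cell junctions, read 234, 179 and 238 in BSN, 1916, 2767 and 2988 in HRG and 321, 2902 and 3001 in PTN, so 2 of the PTN arrays were as high as HRG and 1 was near BSN. Efemp1, encoding fibulin-3, read 442 to 573 in BSN and 1986 to 2526 in HRG, and Nefh, a neurofilament subunit, read 188 to 303 in BSN and 899 to 1130.0 in HRG. Car5b, a mitochondrial carbonic anhydrase, read 40.4 to 125 in BSN and 745 to 1316 in HRG (adjusted p = 0.00478), while its second probe set did not pass (log2 change 1.55, adjusted p = 0.0532). Tec, a cytoplasmic tyrosine kinase, read 148, 882 and 110.4 in BSN, 2196, 1539 and 906 in HRG and 2614, 2439 and 1651 in PTN, with BSN array 2 close to the lowest HRG array. Mindy2 read 86.8 to 240.0 in BSN and 674 to 972 in HRG, and 3 other probe sets of it passed as higher, while a further probe set was under the filter. Fxyd4 read 111 to 320.2 in BSN and 699 to 1025 in HRG. Their calls were lost without HRG array 1 (0.0588) and without HRG array 3 (0.0501) respectively.

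**Figure D3:**
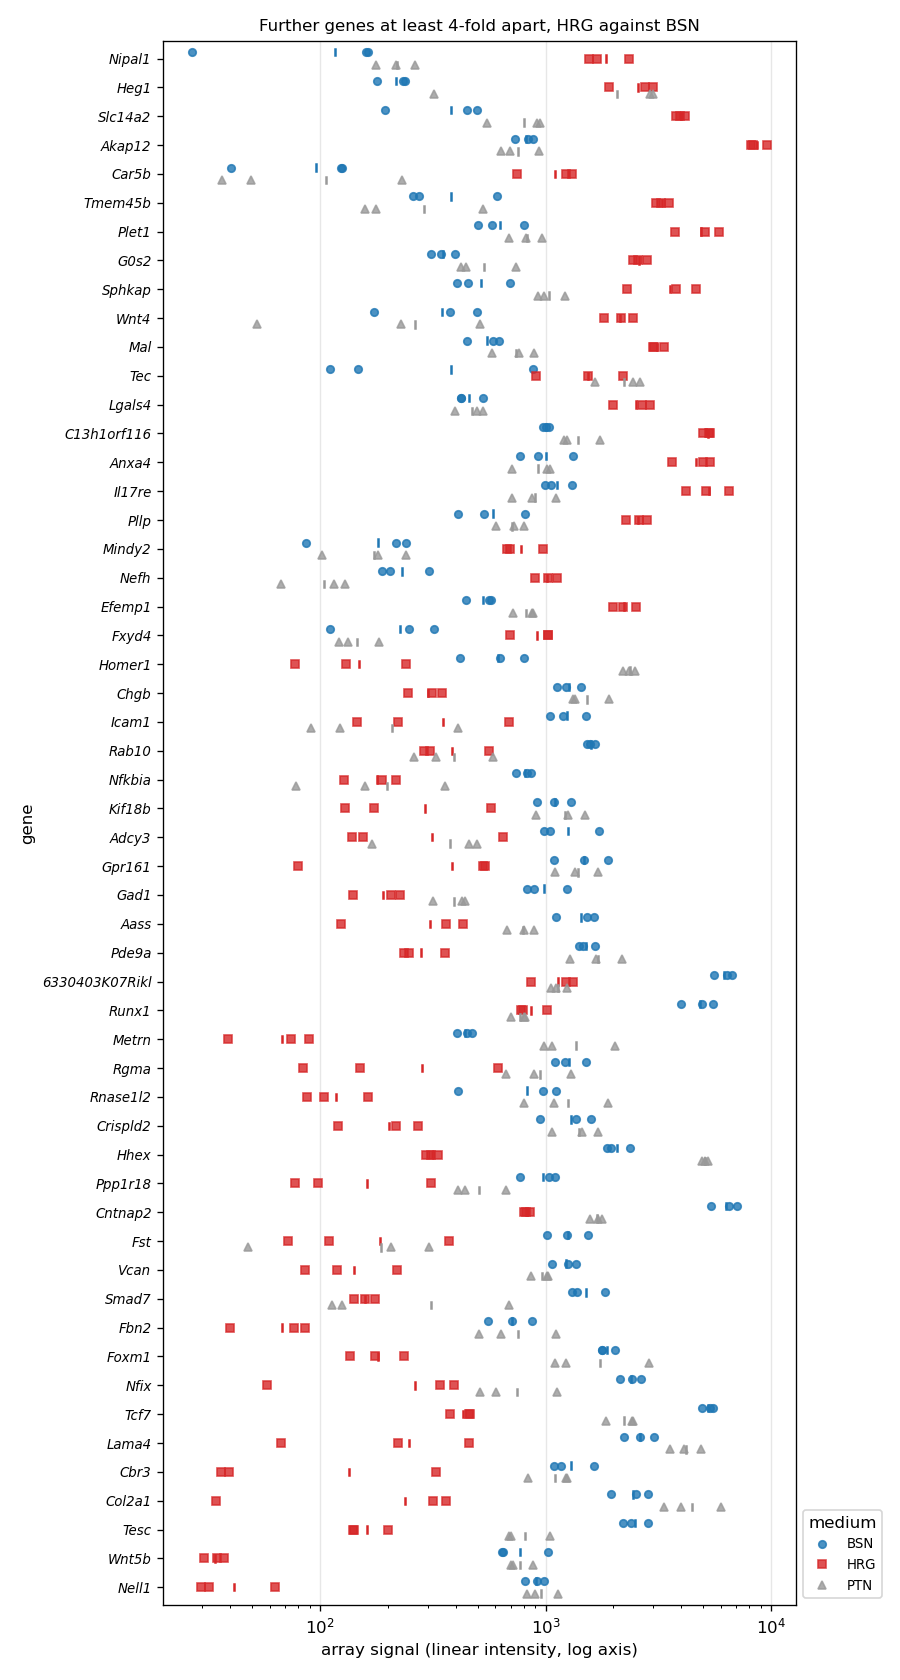
Array signal (log axis) of 54 further genes at least 4-fold apart between HRG and BSN, named after their values were seen and ordered from the largest rise at the top to the largest fall, with 3 arrays per medium as points and the mean as a short line. In 47 of the 54 the lower medium's mean lies under the 40th percentile of its arrays, and the PTN points of Heg1 split between 321 and 3001.

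Nuclear receptors were among the genes that rose. Of the list of nuclear hormone receptors and hormone handling, 16 of the 36 on the array passed the signal filter, with 5 called higher, 2 lower and 9 not called and a median log2 change of 0.11. Nr3c1, the glucocorticoid receptor, read 2904, 2074 and 2042 in BSN and 6694, 6840.2 and 6533 in HRG and rose 2.88-fold (adjusted p = 0.00022), with 1504, 2662 and 1784 in PTN. Nr3c2, the mineralocorticoid receptor of the collecting duct, read 3919, 4947 and 4095 in BSN and 7362, 7318 and 6018 in HRG and rose 1.6-fold (adjusted p = 0.00805). Both steroid receptors separated the groups fully, and no PTN array of either was above the BSN range. Pparg, a fatty acid receptor that controls urothelial and adipose genes, read 445 to 777 in BSN and 1633 to 1726 in HRG (adjusted p = 0.00208). Nr1d2, a repressor of the circadian clock, rose 1.83-fold (1792 to 2229 in BSN and 2765 to 4378 in HRG) and passed on a second probe set as well. Nr2f2, an orphan receptor, read 617 to 867 in BSN and 1355 to 2224 in HRG (adjusted p = 0.00341), while a dimmer probe set did not pass (log2 change 0.07, adjusted p = 0.921). These 5 calls held with any array left out, and the count became 3 with the 60th percentile filter.

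The 2 members that fell bind hormones or receptor complexes. Crym, a cytosolic thyroid hormone binding protein, read 21064, 34694 and 32643 in BSN, 2302, 2132 and 1417 in HRG and 29769, 32326 and 44714 in PTN, the largest of the 24 falls taken by the naming rule. BSN array 1 was the lowest of the BSN arrays, yet far above every HRG array. Fkbp5, a chaperone partner and target of the glucocorticoid receptor, read 2264, 1951 and 1831 in BSN and 1390.4, 822 and 827 in HRG and fell 2.03-fold (adjusted p = 0.0222), a call lost with no filter (0.0536), without BSN array 1 (0.0831), without BSN array 2 (0.0648), without HRG array 2 (0.0917) or without HRG array 3 (0.0938). The lower count of the list became 1 without BSN array 1, BSN array 2, HRG array 2 or HRG array 3 or with no filter and 4 with only the 6 arrays filtered and fitted or with array weights or with only the 6 arrays fitted.

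Of the 24 largest falls, genes of surface and secreted proteins are given first. Olfm1, a secreted olfactomedin, read 14458, 13894 and 17982 in BSN, 1873, 1512 and 1547 in HRG and 4914, 6494 and 6071 in PTN, and a second probe set fell as well. Igsf3, an immunoglobulin superfamily protein, read 11144, 9411 and 10537 in BSN and 1897, 1776 and 1886 in HRG and fell 5.54-fold (adjusted p = 2.64e-07), with 4833, 6942 and 5651 in PTN. For both genes the PTN arrays lay between the other groups. Col9a1, a chain of collagen IX, read 8511, 9097 and 9076 in BSN, 1873, 2053 and 1512 in HRG and 22412, 22285 and 20676 in PTN, and fell 4.91-fold (adjusted p = 2.33e-07). Here the PTN arrays were the highest of the 9. Ackr3, an atypical receptor that binds the same chemokine as Cxcr4, read 17502, 22300.4 and 20922 in BSN and 3536, 4687 and 4411 in HRG and fell 4.8-fold (adjusted p = 2.2e-06), with 5568, 8410.1 and 6846 in PTN. Spon1, encoding F-spondin, fell 4.56-fold (12562 to 13217 in BSN and 2352 to 3144 in HRG), and Lrp4, a receptor for agrin, fell 4.52-fold (3841 to 8073 in BSN and 1043 to 1771 in HRG). Tro, encoding trophinin, fell 4.55-fold (12537 to 15685 in BSN and 2672 to 3590.5 in HRG).

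Further falls concerned enzymes, membrane traffic and transcription. Cyth3, an Arf exchange factor, read 19729, 20450.5 and 23407 in BSN, 1835, 2466 and 3351 in HRG and 733, 1616 and 1938 in PTN, so the 3 BSN arrays were the bright ones of the 9. Marchf11, a membrane ubiquitin ligase, read 19279.7, 18274 and 15883 in BSN, 3659.8, 2537 and 4179 in HRG and 26032, 27777 and 29312 in PTN, and fell 5.22-fold (adjusted p = 1.3e-06). The Marchf11 arrays of PTN were all above those of BSN. Stxbp6, a binding partner of SNARE proteins, fell 3.47-fold (8273 to 11518 in BSN and 2035 to 3269.5 in HRG), and Gpcpd1, a glycerophosphocholine phosphodiesterase, fell 3.3-fold (4372 to 5405 in BSN and 1232 to 1788 in HRG). Mt2A, a metallothionein, fell 3.52-fold (9216 to 14805 in BSN and 2681 to 3865 in HRG), and Calml4, a calmodulin-like protein, fell 3.83-fold (5832 to 6784 in BSN and 1382 to 1836 in HRG). Fam111a, a protease linked to DNA replication, read 13438, 15772 and 13385 in BSN and 4732, 4158 and 4498 in HRG and fell 3.17-fold (adjusted p = 6.18e-06).

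Arnt2, a partner of PAS domain transcription factors, read 4139.8, 5278 and 3897 in BSN and 1424, 1356 and 1318 in HRG and fell 3.2-fold (adjusted p = 4.32e-05), while a dim second probe set did not pass (log2 change 0.24, adjusted p = 0.566). Egr1, an immediate early transcription factor, read 8159, 17454 and 19865 in BSN, 2309.8, 6371 and 5968 in HRG and 4851, 11159 and 15779 in PTN. In all 3 media array 1 was the lowest Egr1 array, and its fall of 3.17-fold had an adjusted p of 0.0262. That call was lost with median centring (0.0603), with no filter (0.0629), without BSN array 2 (0.105), without BSN array 3 (0.112) or without HRG array 1 (0.108). The other 23 of the 24 largest falls kept their call under every alternative run on them.

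**Figure D4:**
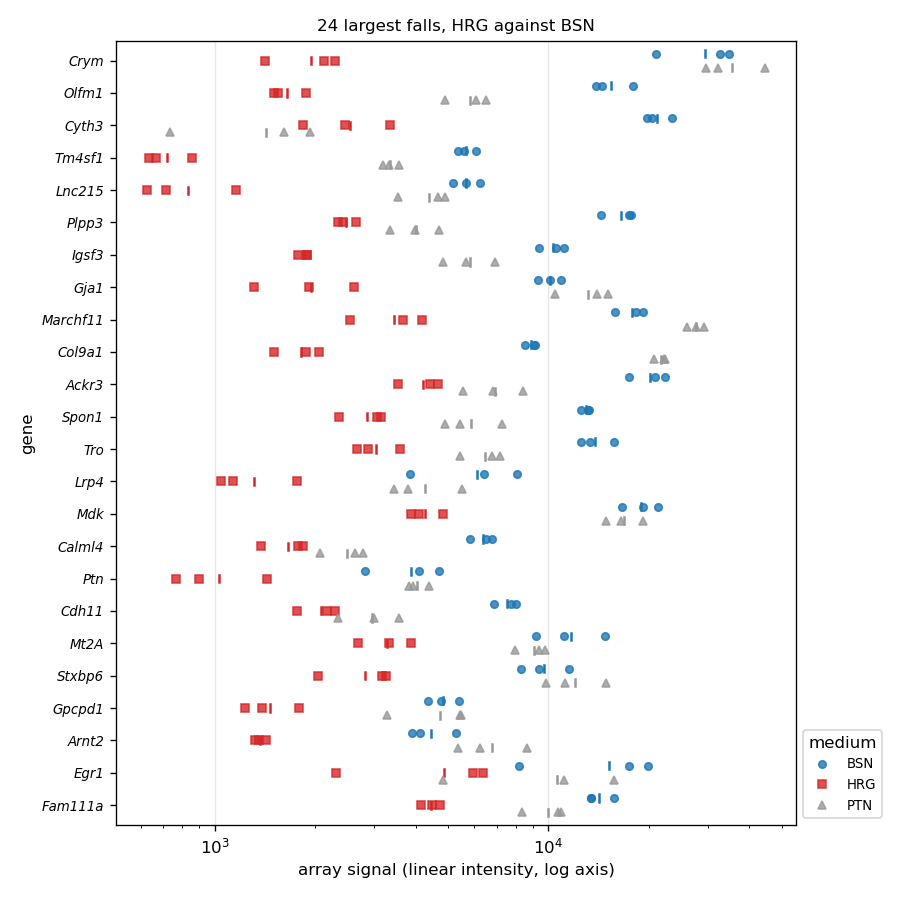
Array signal (log axis) of the 24 genes with the largest fall in HRG against BSN by the naming rule, ordered from the largest at the top, with 3 arrays per medium as points and the mean as a short line. The rule took only genes whose BSN and HRG arrays do not overlap, so the gap between their points was set by the choice. The PTN points, which the rule did not use for this gap, lie near HRG for Cyth3 and above BSN for Col9a1 and Marchf11.

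Further genes that fell, most of them from a clear signal in BSN to near background in HRG, included matrix genes and transcription factors. Tcf7, a transcription factor of the Wnt pathway, read 5503, 5347 and 4934 in BSN, 456, 463 and 377 in HRG and 2405, 2432 and 1845 in PTN (adjusted p = 1.8e-08). Hhex, a homeodomain factor, read 2369, 1869.7 and 1959 in BSN, 295, 334 and 311 in HRG and 4931, 5117 and 5238 in PTN (adjusted p = 1.21e-07), and Nfix, of the nuclear factor I family, read 2129.6 to 2641 in BSN and 58.4 to 394 in HRG (adjusted p = 0.000602). The Tcf7 arrays of PTN lay between the other groups, and those of Hhex lay above both. Runx1, a transcription factor best known from blood formation, read 4955, 3979 and 5528 in BSN, 1018, 796 and 782 in HRG and 702, 808 and 807 in PTN, and fell 5.48-fold (adjusted p = 8.74e-07). Foxm1, a factor of dividing cells, read 1782 to 2040.2 in BSN and 136 to 235 in HRG. Cntnap2, a neurexin relative, read 6477, 7054 and 5431 in BSN and 818, 851 and 804 in HRG and fell 7.5-fold (adjusted p = 4.29e-08). Coro1a, the 1 marker called of the 6 leukocyte markers past the filter, was also lower, at 694 to 1143 in BSN and 68.1 to 128 in HRG. Its PTN arrays read 1173, 854 and 1080, near BSN, while the Runx1 arrays of PTN were as low as HRG. Ptprc stayed at or under 230.6 in BSN and HRG, and a part of leukocytes in the Runx1 values was not tested.

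Genes of the same class that encode matrix and secreted proteins are given next. Lama4, a laminin chain, read 2229 to 3020.0 in BSN and 67.5 to 457 in HRG, with PTN at 3569 to 4865. Col2a1, a fibrillar collagen, read 1942 to 2855 in BSN and 34.5 to 362 in HRG on one probe set (adjusted p = 0.000695), while a second did not pass (log2 change -0.58, adjusted p = 0.0675). Vcan, encoding versican, read 1073 to 1367 in BSN and 86.2 to 220.5 in HRG, and its second probe set fell too. Crispld2, a secreted protein, read 948 to 1591 in BSN and 121 to 272 in HRG and fell on both probe sets, Fbn2, encoding fibrillin-2, read 556 to 869.7 in BSN and 40.1 to 86.1 in HRG, and Nell1 read 812 to 985 in BSN and 29.6 to 63.5 in HRG. Wnt5b, a Wnt ligand, read 642 to 1029 in BSN and 30.5 to 37.4 in HRG, in the opposite direction to Wnt4. The summed mesenchyme and stroma markers, 5903 to 6194 in BSN and 4781 to 5717 in HRG, were lower as well, but of them only Vim was called. The collagen markers Col1a1, Col3a1 and Col1a2 were not called, with log2 changes of 0.14, 0.35 and -0.57. A part of such cells in these matrix genes was not tested.

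The same class held regulators and enzymes. Smad7, an inhibitor of TGF-beta signalling, read 1372, 1312 and 1829 in BSN, 175, 158 and 142 in HRG and 691, 125 and 113 in PTN (adjusted p = 0.00164), and a second probe set did not pass (log2 change -0.35, adjusted p = 0.472). Fst, encoding the activin binding protein follistatin, read 1016, 1239 and 1536 in BSN, 110.2, 374 and 72.5 in HRG and 48.1, 305 and 206 in PTN (adjusted p = 0.00719), and a second probe set also fell (log2 change -1.03, adjusted p = 0.00416). Tesc, a calcium-binding protein, read 2212 to 2844 in BSN and 140.1 to 201 in HRG (adjusted p = 3.78e-07). Cbr3, a carbonyl reductase, read 1086 to 1646 in BSN and 36.6 to 327 in HRG, Aass, of lysine breakdown, read 1114 to 1643 in BSN and 124 to 431 in HRG, and Gad1, which makes GABA, read 825 to 1245 in BSN and 140.5 to 227 in HRG. Chgb, a secretory granule protein, read 1126 to 1442 in BSN and 246 to 348 in HRG. Metrn, a secreted neurotrophic protein, read 405 to 473 in BSN and 39.3 to 89.6 in HRG, with PTN at 982 to 2023. Nfkbia, the inhibitor of NF-kappa-B, read 743 to 859 in BSN and 128 to 218 in HRG, a call lost without BSN array 3 (0.0545), and Icam1, an adhesion molecule, read 1042, 1196 and 1515 in BSN and 146, 221 and 686 in HRG, a call lost with no filter (0.0513), without BSN array 1 (0.0614), without BSN array 2 (0.0841), without BSN array 3 (0.108), without HRG array 1 (0.102) or without HRG array 2 (0.0928). Homer1, a scaffold of glutamate receptors, read 417 to 803 in BSN and 77.3 to 240.3 in HRG on 1 probe set with PTN at 2213 to 2504, while 2 others did not pass. Metrn, Homer1 and Fbn2 had means under the 40th percentile in both BSN and HRG, so their falls lie within the dim range. Other falls were Ppp1r18, at 774 to 1099.9 in BSN and 77.8 to 311 in HRG, Rnase1l2, at 409 to 1111 in BSN and 87.3 to 163 in HRG, Gpr161, at 1091 to 1884 in BSN and 80.1 to 542 in HRG, Kif18b, at 916 to 1302 in BSN and 129 to 572 in HRG, and Rab10, at 1533 to 1663 in BSN and 290.2 to 560.4 in HRG. A brighter Rab10 probe set fell less (log2 change -0.55, adjusted p = 0.00835). The poorly described gene 6330403K07Rikl fell 5.45-fold (5589.5 to 6678 in BSN and 866 to 1329.8 in HRG).

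Called genes of cyclic nucleotide and G protein signalling were mostly lower in HRG. These genes make, break down or respond to cAMP and cGMP, or limit the active time of G proteins. Of the RGS and G protein list, 43 of the 64 on the array passed the signal filter, with 2 called higher, 11 lower and 30 not called and a median log2 change of -0.13, against a median of -0.04 over all genes. The lower share was 25.6% of the kept members, beside 9.16% of all genes, in a list chosen with earlier results of these data known. The lower count became 6 without HRG array 3 and 7 without BSN array 3 or with the 60th percentile filter. Phosphodiesterases, which break down cyclic nucleotides, made 3 of the 11. Pde4b read 2729.7, 2165 and 1892 in BSN, 326, 412 and 295 in HRG and 248, 293 and 170.1 in PTN (adjusted p = 2.78e-05), and Pde9a, a further phosphodiesterase outside the list, read 1472, 1659 and 1407 in BSN, 248, 358 and 236 in HRG and 2178, 1669 and 1277 in PTN (adjusted p = 1.65e-05). The PTN arrays of Pde4b were as low as HRG, and those of Pde9a were in or near the BSN range. Pde2a read 2036, 2559 and 3793 in BSN and 1195, 652 and 656 in HRG and fell 3.33-fold (adjusted p = 0.000822), and Pde7a read 4048, 3204 and 3719 in BSN and 1899, 1867 and 1738 in HRG and fell 1.98-fold (adjusted p = 0.000493).

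Of the 3 adenylyl cyclase genes (Adcy) that passed the signal filter 2 were called lower, and Adcy6 was not called on either of its probe sets. Adcy2 read 1621, 1830.3 and 1828 in BSN and 752, 844 and 580.1 in HRG and fell 2.42-fold (adjusted p = 0.000421). Adcy3 read 1050.3, 1726 and 983 in BSN and 156, 649 and 139 in HRG (adjusted p = 0.0132), a call lost without BSN array 2 (0.0735), without HRG array 1 (0.0552) or without HRG array 3 (0.0597). Rgs5, an inhibitor of G protein signals, read 1045 to 1251 in BSN and 456 to 655 in HRG (adjusted p = 0.00334), and Plcb4, a phospholipase C, fell 1.74-fold (2799.9 to 4290.0 in BSN and 1761 to 2123 in HRG). The members that rose were Plcb1, another phospholipase C, 1.68-fold (1996 to 2391 in BSN and 3418 to 4251 in HRG), and Prkacb, a catalytic subunit of protein kinase A, 1.63-fold (8538 to 9177 in BSN and 13249.7 to 16192 in HRG). Of the 6 protein kinase A subunit genes that passed the filter Prkacb was higher, the regulatory subunit Prkar1b was lower and 4 were not called. Prkar1b fell 1.62-fold (1635 to 2168 in BSN and 1008 to 1338 in HRG, adjusted p = 0.0372), a call lost with no filter (0.0749), without BSN array 1 (0.0928), without BSN array 2 (0.0512), without BSN array 3 (0.143), without HRG array 2 (0.103) or without HRG array 3 (0.143). Of the 10 phosphodiesterase genes (Pde) that passed the filter, 4 were lower and 6 not called, among the last Pde3b at a log2 change of 0.89 (adjusted p = 0.0599). These small families were counted apart from the gene lists, and over all genes 9.16% were lower and 7.07% higher.

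Calls among calcium signalling genes went in both directions. Of the protein kinase C and calcium list, 35 of the 45 on the array passed the signal filter, with 5 called higher, 2 lower and 28 not called and a median log2 change of -0.01. The share called, 20%, was near the 16.2% of all genes. Camk2d, a calmodulin-dependent kinase, read 5031, 5233 and 4148 in BSN, 13189.5, 13670.3 and 13734 in HRG and 3984, 6308 and 6639 in PTN, and rose 2.82-fold (adjusted p = 0.00012), while a dimmer probe set did not pass (log2 change 0.53, adjusted p = 0.201). Prkci, the atypical protein kinase C of the polarity complex, rose 1.54-fold (10232 to 10754 in BSN and 14346 to 17831 in HRG), and a second probe set did not pass (log2 change 0.03). Prkca rose 1.61-fold (864 to 932 in BSN and 1349.7 to 1538 in HRG). The calcium count for higher genes became 3 without HRG array 2 or HRG array 3 or with the 60th percentile filter. The calcium count for lower genes became 0 without BSN array 1 or HRG array 3 or with median centring and 1 without BSN array 2, BSN array 3 or HRG array 1 or with no filter or without the intensity trend.

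Axon guidance genes steer growing cells by attraction and repulsion and are used by branching epithelia as well, and those called here were mostly lower. Of that list 27 of the 42 on the array passed the signal filter, with 1 called higher, 8 lower and 18 not called and a median log2 change of -0.31, against -0.04 over all genes. The lower count was 6 to 8 with 1 array left out, and the higher count became 2 without BSN array 3 or with only the 6 arrays filtered and fitted or with array weights or with only the 6 arrays fitted. Sema5a, a transmembrane semaphorin, read 1857, 1839.9 and 1605 in BSN, 512, 483 and 501 in HRG and 2764, 2352 and 2629.8 in PTN (adjusted p = 3.51e-06). Dpysl5, a cytosolic mediator of guidance signals, read 4013, 3407 and 3778 in BSN and 1566, 1382 and 1517 in HRG and fell 2.49-fold (adjusted p = 1.94e-05). Both separated the groups fully. Efna5, an ephrin ligand, fell 1.87-fold (8863 to 10084 in BSN and 4887 to 5364 in HRG, adjusted p = 0.000683). Ephb4, an ephrin receptor, fell 1.67-fold, and Sema6a, another semaphorin, fell 1.74-fold. Rgma, a repulsive guidance molecule, read 1099, 1220.3 and 1508 in BSN and 84.1, 150.4 and 614 in HRG (adjusted p = 0.00447), with HRG array 3 well above the other HRG arrays. Sema3c, a secreted semaphorin, was the 1 member that rose, 1.92-fold (5649 to 6764 in BSN and 11522 to 12180.4 in HRG, adjusted p = 0.000397).

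Developmental transcription factors and Notch genes had smaller changes. Of the Sox, Hox and other developmental factors 19 of the 38 on the array passed the signal filter, with 1 called higher, 5 lower and 13 not called and a median log2 change of -0.24. Sox11, a factor of immature neural and mesenchymal tissue, read 1135 to 1376 in BSN and 378 to 496 in HRG (adjusted p = 0.000585), and Tcf4, a partner of basic helix-loop-helix factors, fell 1.99-fold (2994 to 3477 in BSN and 1515 to 1872 in HRG, adjusted p = 0.000588), while its second probe set did not pass (log2 change -0.48, adjusted p = 0.0578). Foxq1, a forkhead factor of epithelia, was the member that rose, 2.16-fold (1783 to 2144 in BSN and 3836 to 4779 in HRG, adjusted p = 0.000454), with PTN at 902 to 1285. The developmental factor count for lower genes became 2 without HRG array 2 and 3 without BSN array 2, BSN array 3 or HRG array 3. Of the Notch pathway, 19 of the 29 on the array passed the signal filter, with 0 called higher, 4 lower and 15 not called and a median log2 change of -0.11. The receptor Notch1 fell 1.63-fold (5369.5 to 6458 in BSN and 3139 to 4186 in HRG), while its second probe set did not pass at a log2 change of -0.41. The co-repressor Tle1 fell 1.57-fold (2338 to 2593 in BSN and 1539 to 1578 in HRG). The Notch count became 2 without BSN array 1, BSN array 3 or HRG array 1 or with median centring. Of the 10 Hedgehog genes on the array 2 passed the filter, and Smo, the signal transducer, fell 1.66-fold, a call lost without HRG array 3 (0.0539).

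Adhesion molecules of the cell surface changed in both directions. Of that list 22 of the 33 on the array passed the signal filter, with 3 called higher, 5 lower and 14 not called and a median log2 change of 0.04. Vcam1, a ligand of integrins, read 1784, 1711 and 1703 in BSN, 7250.5, 9404 and 8704 in HRG and 1340.5, 2742 and 3279 in PTN. Alcam, which joins like cells, rose 1.83-fold (5479.9 to 6024 in BSN and 9988 to 11201 in HRG, adjusted p = 0.00097), and Cd47 rose 1.7-fold (2185 to 2524 in BSN and 3593 to 4325 in HRG, adjusted p = 0.00138). A dimmer Cd47 probe set did not pass (log2 change 1.41, adjusted p = 0.112). Cdh11, a mesenchymal cadherin, fell 3.63-fold, with 8017, 7742 and 6878 in BSN and 2301, 2171 and 1762 in HRG, and PTN at 2346 to 3561 (adjusted p = 1.09e-05). The 3 that rose kept their number with any array left out, and the lower count became 1 without BSN array 2, 2 without HRG array 2 or with the 60th percentile filter and 3 without BSN array 3 or HRG array 3. The summed mesenchyme markers given before were lower as well, though only Vim of them was called, and a part of such cells in Cdh11 was not tested.

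Tetraspanins, which organise membrane microdomains, and their relatives were also split. Of that list 18 of the 24 on the array passed the signal filter, with 5 called higher, 3 lower and 10 not called and a median log2 change of 0.08. Beside Tspan8, Cd82 rose 2.11-fold (940.4 to 1865 in BSN and 2526 to 3347 in HRG, adjusted p = 0.00612). Tm4sf1, one of the relatives, read 6061, 5593 and 5359 in BSN, 858, 635 and 668 in HRG and 3566, 3206 and 3321 in PTN, the clearest fall of the list. Tspan9 fell 1.53-fold, a call lost without BSN array 2 (0.053) or HRG array 3 (0.0592). Tspan5 fell 1.4-fold, a call lost with median centring (0.0543) or without BSN array 2 (0.0829), BSN array 3 (0.08), HRG array 2 (0.0734) or HRG array 3 (0.103). Its second probe set did not pass (log2 change 0.01). The tetraspanin count for higher genes became 2 without BSN array 2 or HRG array 3 and 3 without BSN array 3. The tetraspanin count for lower genes became 1 without BSN array 2 or HRG array 3. Of the caveolae genes 6 of the 8 on the array passed the signal filter, with 2 called higher, 0 lower and 4 not called and a median log2 change of 0.08. Cav1, the main coat protein of caveolae, read 2185, 2264 and 2069 in BSN, 9342, 8740.3 and 9561 in HRG and 2766, 3578 and 3550.4 in PTN, and Pacsin2, which bends their membrane, rose 1.79-fold (6360.2 to 9271 in BSN and 11755 to 16839.5 in HRG, adjusted p = 0.00441), while its second probe set did not pass (log2 change -0.10). Both caveolae calls held with any array left out.

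Enzymes of signalling lipids differed in both directions. Of the lysophospholipid and sphingolipid list 19 of the 26 on the array passed the signal filter, with 2 called higher, 3 lower and 14 not called and a median log2 change of -0.21. Enpp2, encoding autotaxin, which makes lysophosphatidic acid, read 1121, 1338 and 1397 in BSN, 448, 477 and 330.0 in HRG and 3519.8, 2711 and 2618 in PTN (adjusted p = 9.6e-05). Plpp3, which removes it, read 14370.3, 17469 and 17698 in BSN, 2426, 2346 and 2654 in HRG and 4697, 3348 and 3986 in PTN, and a second probe set fell too, at 18953, 14084 and 10333 in BSN and 5239.9, 5959 and 3817 in HRG. Plpp2, a relative of Plpp3, rose 1.71-fold (5619.5 to 7438 in BSN and 9815 to 13206 in HRG, adjusted p = 0.00429). So both the enzyme that makes this lipid and one that removes it were lower, while a second remover was higher. Asah1, the acid ceramidase, rose 1.91-fold (3062 to 3330.0 in BSN and 5639 to 6463 in HRG, adjusted p = 0.000458), while a dimmer probe set did not pass (log2 change 0.05, adjusted p = 0.912). Degs1, of ceramide synthesis, fell 1.59-fold, a call lost without BSN array 1 (0.0583), without BSN array 3 (0.0823), without HRG array 2 (0.0921) or without HRG array 3 (0.0645). The lower count of the lipid list became 5 with only the 6 arrays filtered and fitted or with only the 6 arrays fitted and 6 with array weights.

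In the prostaglandin list 17 of the 34 on the array passed the signal filter, with 3 called higher, 2 lower and 12 not called and a median log2 change of 0.04. Pla2g4a, the phospholipase that frees arachidonate, read 1399, 1382 and 1112 in BSN and 2967, 2809.5 and 2202 in HRG and rose 2.03-fold (adjusted p = 0.00106). Slco2a1, the prostaglandin transporter, rose 1.76-fold (993 to 1036 in BSN and 1519 to 2095 in HRG, adjusted p = 0.00841), while a second probe set did not pass (log2 change 0.09). The prostaglandin count for lower genes became 0 without BSN array 2, BSN array 3, HRG array 2 or HRG array 3 or with median centring or with no filter or without the intensity trend and 1 without BSN array 1 or HRG array 1. Of the phosphoinositide 3-kinase and Akt genes, a pathway that ErbB3 can engage, 27 of the 35 on the array passed the signal filter, with 3 called higher, 1 lower and 23 not called and a median log2 change of -0.04. Grb10, an adaptor that limits insulin receptor signals, was the member that fell, 1.91-fold (15129.5 to 23036 in BSN and 9182 to 11908 in HRG, adjusted p = 0.00143), and Plekha1, a phosphoinositide binding protein, rose 1.61-fold (7963 to 8875 in BSN and 12564 to 14382 in HRG). The pathway count for higher genes became 1 without BSN array 2, HRG array 2 or HRG array 3, that for lower genes became 2 with only the 6 arrays filtered and fitted or with array weights, and the share called, 14.8%, was near the 16.2% of all genes.

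Cytoskeletal genes were measured in lists of microtubule and of actin genes. Of the microtubule genes 38 of the 43 on the array passed the signal filter, with 2 called higher, 11 lower and 25 not called and a median log2 change of -0.24. Map1b, which stabilises microtubules, read 5484, 6599 and 5252 in BSN and 2809, 3108 and 3012 in HRG and fell 1.93-fold (adjusted p = 0.00117), and Kif3c, a kinesin motor, fell 1.83-fold (3282 to 4191 in BSN and 1785 to 2231 in HRG). Tubg1, which starts new microtubules, fell 1.74-fold (1269.6 to 1342 in BSN and 695 to 769 in HRG). Of the same list, Dcx read 848 to 1078 in BSN and 39 to 82.8 in HRG. Map2 read 2739.7 to 3545 in BSN and 517 to 788 in HRG. Dclk1, a relative of Dcx, fell 1.49-fold on its brightest probe set, and 2 others did not pass (log2 changes 0.39 and -0.29). Dynlt3, a dynein light chain, rose 1.9-fold (3838 to 4816 in BSN and 7999 to 8721 in HRG, adjusted p = 0.00071). The microtubule count for lower genes became 6 without BSN array 2 or HRG array 2 or with median centring and 7 without BSN array 3 or HRG array 3, and the higher count became 1 without BSN array 1, BSN array 2, HRG array 1 or HRG array 3.

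Of the actin genes 58 of the 71 on the array passed the signal filter, with 5 called higher, 9 lower and 44 not called and a median log2 change of -0.02. The kept members were 8.62% higher and 15.5% lower, beside 7.07% and 9.16% of all genes. Coro1a, a coronin that binds actin and is abundant in leukocytes, read 694, 1143 and 800.5 in BSN and 90.4, 128 and 68.1 in HRG (adjusted p = 3.82e-05). Among LIM domain proteins, Fhl1 fell 1.79-fold and Pdlim7 1.95-fold, Fhl2 was called lower at 1291 to 1815 in BSN and 418 to 515 in HRG, and Lima1 rose 1.36-fold (adjusted p = 0.0349), a call lost with the replicate block (0.0501), without BSN array 1 (0.121), without BSN array 3 (0.133), without HRG array 1 (0.0832), without HRG array 2 (0.0926) or without HRG array 3 (0.1). Flna, a filamin that crosslinks actin, fell 1.75-fold (4180.3 to 4933 in BSN and 2014 to 3089 in HRG), and Msn, encoding moesin, read 946 to 1181 in BSN and 197 to 491 in HRG. Pls1, a bundling protein of microvilli, rose 2.08-fold (5455 to 6321 in BSN and 11252 to 14639 in HRG, adjusted p = 0.000631). The lower count was 6 to 9 with 1 array left out and became 14 with array weights, and the higher count became 1 without BSN array 3 or HRG array 3, 3 without BSN array 1, BSN array 2 or HRG array 2 and 8 with array weights. The actin control's 3' signal, 22019 ± 4415 in BSN and 13030 ± 1234 in HRG (SD, n = 3), was also lower in HRG, while 5 genes of the list were called higher. Its part in these calls was not tested.

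Chromatin and fetal growth genes were mostly lower where called. Of that list 40 of the 45 on the array passed the signal filter, with 1 called higher, 10 lower and 29 not called and a median log2 change of -0.16. Ezh2 and Cbx2, both parts of Polycomb repressor complexes, fell 1.71-fold and 1.92-fold. Ezh2 read 5183, 5261 and 4390.3 in BSN, 2638, 2889.8 and 3105 in HRG and 8849, 9164 and 8659.5 in PTN, with PTN above BSN, and Cbx2 read 3009, 2939.9 and 3253 in BSN, 1567, 1630.0 and 1566 in HRG and 2009, 2479.5 and 2174 in PTN, with PTN between the groups. Mest, an imprinted gene of fetal tissue, read 22834, 26933 and 18540.2 in BSN and 12444, 10784 and 7699 in HRG and fell 2.22-fold (adjusted p = 0.00154). Grb10, given before, is imprinted as well. H2az1, a histone variant, fell 1.44-fold (55927 to 57792 in BSN and 36032 to 44262 in HRG, adjusted p = 0.00487). The chromatin count for lower genes became 5 without HRG array 3 and 6 without BSN array 1 or BSN array 2 or with median centring. Plagl1 was the 1 member called higher (1.82-fold, adjusted p = 0.0396), a call lost with no filter (0.0767), without the intensity trend (0.0608), without BSN array 1 (0.0596), without BSN array 2 (0.12), without BSN array 3 (0.123), without HRG array 1 (0.122), without HRG array 2 (0.116) or without HRG array 3 (0.0522). The list's higher count was 2 with the 60th percentile filter and 3 with array weights or with only the 6 arrays fitted.

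Metabolic lists held few large changes. Of the nucleotide and one-carbon genes 37 of the 45 on the array passed the signal filter, with 2 called higher, 8 lower and 27 not called and a median log2 change of -0.14. Ada, adenosine deaminase, read 1431, 2079 and 1909.5 in BSN, 624, 547 and 628 in HRG and 2324, 2199 and 2512 in PTN (adjusted p = 4.16e-05), and Phgdh, the first enzyme of serine synthesis, read 4425, 7629.5 and 6028 in BSN and 2937, 2733 and 2522 in HRG and fell 2.15-fold (adjusted p = 0.00097). Ampd3, which acts on AMP, rose, so of these deaminases of adenine compounds one was lower and the other higher. The lower count of the list became 2 with median centring, 4 without HRG array 1 or HRG array 3 and 5 without BSN array 2, BSN array 3 or HRG array 2 or with no filter or without the intensity trend. The nucleotide count for higher genes became 1 without BSN array 3, HRG array 2 or HRG array 3 or with quantile normalization or with no filter or without the intensity trend and 4 with only the 6 arrays fitted.

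Of the polyamine genes 13 of the 14 on the array passed the signal filter, with 1 called higher, 2 lower and 10 not called and a median log2 change of -0.20. Sat1, the enzyme that marks polyamines for breakdown and export, read 13695, 13936 and 15658 in BSN, 34489, 30975 and 31159 in HRG and 10946, 12309 and 13888 in PTN, and rose 2.23-fold (adjusted p = 4.42e-05), with no overlap between HRG and any other array. The polyamine count for lower genes became 0 without BSN array 1 and 1 without BSN array 3, HRG array 1, HRG array 2 or HRG array 3. Of the glycogen, creatine and polyol genes 20 of the 26 on the array passed the signal filter, with 3 called higher, 1 lower and 16 not called and a median log2 change of 0.18. The share called in the glycogen list, 20%, was near the 16.2% of all genes. Ckmt1, the mitochondrial creatine kinase, read 315, 458 and 435 in BSN and 2407, 1648 and 2215 in HRG (adjusted p = 0.000136). Pygl, the liver form of glycogen phosphorylase, read 15583, 17146 and 17404 in BSN, 8882, 6624 and 7102 in HRG and 33101, 28152 and 29172 in PTN, and fell 2.23-fold (adjusted p = 8.72e-05). The PTN arrays of Pygl were the highest of the 9. The glycogen list count for higher genes became 1 without BSN array 1, HRG array 2 or HRG array 3, and that for lower genes became 2 with quantile normalization or with only the 6 arrays filtered and fitted or with array weights or with only the 6 arrays fitted.

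Of the mucin and glycosylation genes 23 of the 35 on the array passed the signal filter, with 3 called higher, 3 lower and 17 not called and a median log2 change of -0.03. Fut8, which adds core fucose to N-glycans, read 1408, 1352 and 1785 in BSN and 3201, 3347 and 3026 in HRG and rose 2.11-fold (adjusted p = 0.000494), and Man2a1, a Golgi mannosidase that trims them, rose 2.35-fold (1031 to 1703 in BSN and 3108 to 3619.7 in HRG, adjusted p = 0.000425). St3gal2, a sialyltransferase, read 1297 to 1459.6 in BSN and 313 to 539.5 in HRG (adjusted p = 0.000337). St6gal1, another sialyltransferase, read 19238, 19985 and 17940.2 in BSN and 10706, 10949.6 and 11769 in HRG and fell 1.71-fold (adjusted p = 0.00876), a call lost with median centring (0.0591). The glycosylation count for lower genes became 1 with median centring and 5 with array weights.

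The remaining lists had few calls, near or under the 16.2% of all genes where more than 5 members passed the filter. Of the apoptosis genes 27 of the 41 on the array passed the signal filter, with 0 called higher, 2 lower and 25 not called and a median log2 change of -0.01. Birc3, an inhibitor of apoptosis, fell 1.82-fold (2000.3 to 2428 in BSN and 1098 to 1255 in HRG, adjusted p = 0.00216), and the lower count became 1 without BSN array 1, BSN array 2, BSN array 3, HRG array 2 or HRG array 3 or with quantile normalization or with median centring or with no filter or without the intensity trend and 4 with array weights. The higher apoptosis count became 1 with only the 6 arrays filtered and fitted or with array weights or with only the 6 arrays fitted. Of the lysosome and endosome genes 36 of the 39 on the array passed the signal filter, with 2 called higher, 1 lower and 33 not called and a median log2 change of 0.04, and Gaa, the acid alpha-glucosidase, fell 1.64-fold (4808 to 5456 in BSN and 2764 to 3361 in HRG, adjusted p = 0.00429). The higher lysosome count became 0 without HRG array 2, 1 without BSN array 1, BSN array 2, BSN array 3 or HRG array 3, 4 with median centring and 5 with only the 6 arrays filtered and fitted or with array weights or with only the 6 arrays fitted, and the lower count became 2 with quantile normalization or with array weights. Of the vacuolar proton pump 13 of the 16 on the array passed the signal filter, with 1 called higher, 0 lower and 12 not called and a median log2 change of 0.12, and the higher count became 0 without BSN array 1, BSN array 2, HRG array 1 or HRG array 2 and 2 with only the 6 arrays filtered and fitted or with array weights or with only the 6 arrays fitted, while the lower count became 1 with array weights. Of the retinoid genes 16 of the 24 on the array passed the signal filter, with 1 called higher, 0 lower and 15 not called and a median log2 change of -0.12, and Crabp2, which carries retinoic acid to its receptors, rose 1.64-fold (4933 to 6146 in BSN and 7779 to 9514 in HRG, adjusted p = 0.00393).

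Of the cytokine and chemokine genes 14 of the 38 on the array passed the signal filter, with 0 called higher, 2 lower and 12 not called and a median log2 change of -0.17. Cxcl16, a membrane-bound chemokine, fell 1.79-fold, a call lost without BSN array 1 (0.0618), without BSN array 3 (0.0526), without HRG array 2 (0.0686) or without HRG array 3 (0.0552). Tnfrsf1a, a receptor for tumour necrosis factor, fell 1.47-fold, a call lost with median centring (0.067), without BSN array 2 (0.0914), without BSN array 3 (0.08) or without HRG array 1 (0.0926). The lower cytokine count became 0 without BSN array 3, 1 without BSN array 1, BSN array 2 or HRG array 3 or with median centring and 4 with array weights, and the higher count became 1 without BSN array 3. Of the complement and acute phase genes 5 of the 19 on the array passed the signal filter, with 1 called higher, 1 lower and 3 not called and a median log2 change of -0.20. C1r, a protease that starts the classical complement pathway, read 1494, 1699 and 1729 in BSN and 392, 150.1 and 247 in HRG (adjusted p = 5.08e-05), with no overlap between the groups, and its call was the list's lower count, which became 0 with the 60th percentile filter. Hp, encoding haptoglobin, rose 1.97-fold, a call lost with no filter (0.0522), without BSN array 3 (0.0779), without HRG array 1 (0.0729), without HRG array 2 (0.0667) or without HRG array 3 (0.0544).

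**Figure D5:**
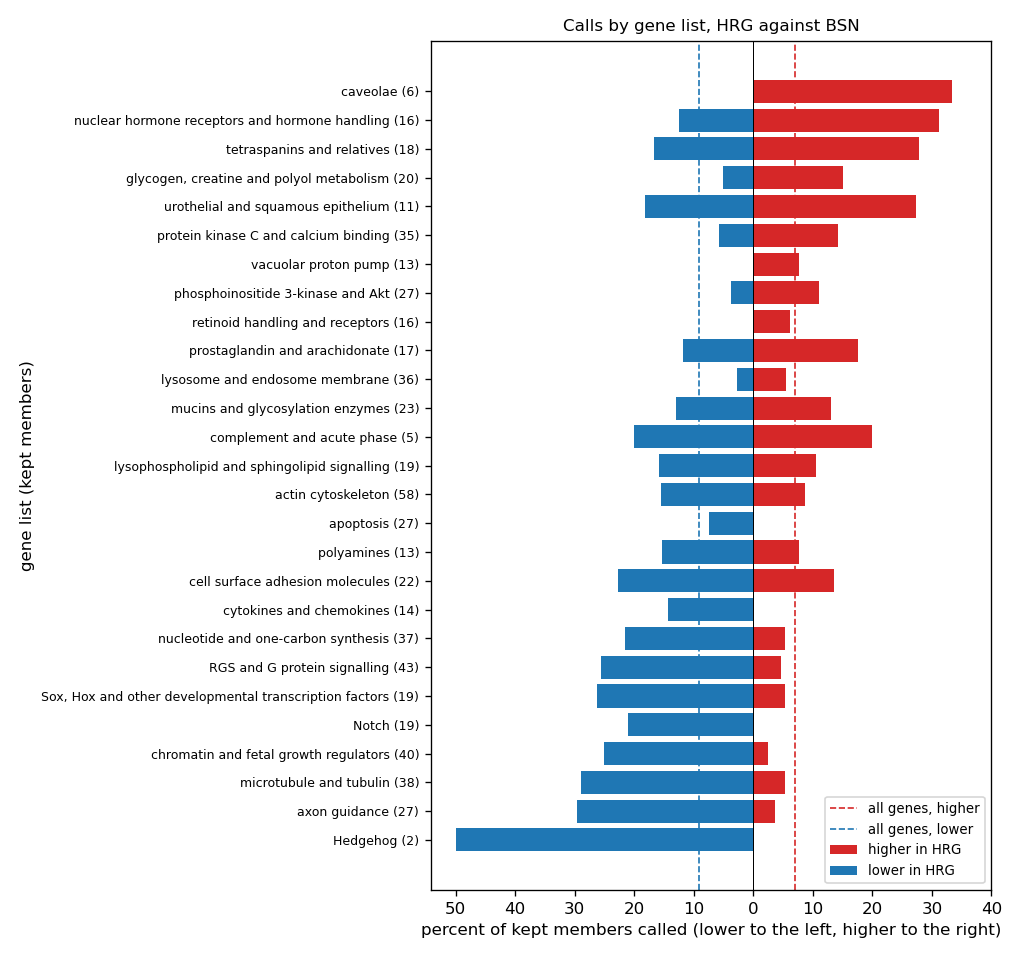
Percent of kept members called higher (red, to the right) or lower (blue, to the left) in HRG for each of 27 gene lists (vertical axis, number of kept members in brackets), with dashed lines at the 7.07% and 9.16% of all 7458 genes. All lists drawn but the retinoid, apoptosis and lysosome lists reach past at least 1 dashed line. Among them are axon guidance with 8 of 27 lower and the microtubule list with 11 of 38 lower. The nuclear hormone receptor list with 5 of 16 higher and the caveolae list with 2 of 6 higher are others. The Hedgehog list has 2 kept members, and in the vacuolar proton pump list 1 call of 13 is enough.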

How the data were processed

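The deposited values are signal intensities on a linear scale; GCOS made them per the submitters' processing notes, with version and scaling not given in the sources used here. On every array the trimmed mean was about 2500.5, so no scaling was added. The number of arrays limits the precision, with 3 per group.

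Of 15923 probe sets 57 array controls were left out, and the 10106 of the other 15866 whose signal exceeded the 40th percentile in 3 or more of the 9 arrays were kept. Symbols came from the platform's annotation (12789 probe sets with 1 symbol, 312 with several, 2822 with none), updated through RefSeq (12754 matched by Entrez ID and 2 by accession). Log2(signal + 16) was fitted over all 9 arrays with limma 3.58.1 in R 4.3.3 (lmFit, contrasts.fit, eBayes with an intensity trend), and p-values were adjusted by Benjamini-Hochberg over all kept probe sets, with 0.05 as the threshold. Every fold is on the log2(value + 16) scale, which understates changes of low signals. Where a group's mean is under its arrays' 40th percentile no fold is given, and a log2 change printed for such a probe set depends on the added 16. The fit was tested on simulated data for HRG against BSN over 10106 probe sets: of 50 planted changes each it called 10 at a log2 change of 0.5, 45 at 1, 42 at -1 and 50 at 2, and 14 of 9906 unchanged probe sets.

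The rule for named genes took the 24 largest rises and 24 largest falls among called probe sets with 1 symbol, groups that do not overlap, a mean above the median and no gene described as tip, cell cycle or aquaporin, plus up to 3 called members per direction of each of 28 gene lists, and the 4 markers. The results of 1 of these lists are not reported here. Further list members and 54 other genes at least 4-fold apart were added after their values were seen. Members, lists and rule were chosen with earlier results of these data known. Promoters are RefSeq's (GRCr8), matched by symbol. Alternatives were other scalings, pseudocounts of 1 and 64, other filters, no intensity trend, array weights, only the 6 arrays, the replicate number as a block, an adjusted p under 0.01, and each array left out. Figures used Python 3.11.15 and matplotlib 3.10.9.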

Additional observations from a re-analysis of the deposited data

How the results depend on the processing

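No named probe set that passed changed sign under any alternative, but the balance of calls did turn: 43.9% of calls were higher, and 57.8% with median centring. Of the 258 named probe sets that passed, 176 passed under every alternative run on them and 82 lost their call under at least 1, most often without HRG replicate 3 (63), without BSN replicate 2 (54) or without HRG replicate 2 (53), and 34 with median centring. The number called, 1594, was 1053 to 1287 with 1 array left out, 2439 with array weights and 844 at an adjusted p under 0.01. The number higher, 699, was 439 to 526 with 1 array left out, 1068 with array weights and 354 at that stricter p. The number lower, 895, was 606 to 761 with 1 array left out, 1371 with array weights and 490 at that stricter p. Of 56 counts of list members, 14 stayed within 1.5 times under every alternative. HRG and BSN arrays share replicate numbers. The correlations of same-numbered deviations were -0.0551, 0.13 and 0.0906, and those of differently numbered ones ran from -0.243 to 0.138. So few correlations cannot show whether the numbers mark a shared batch, which the labels do not say. The numbers were not taken to pair the arrays. With the replicate number as a block 1641 probe sets were called, 1506 of them shared with the fit without it. Dim probe sets, 233 of the calls, have a group under the 40th percentile, where signal over background limits any fold.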
